A study of Mus musculus with 8 samples.

Results

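The 10 genes described here encode the enzymes and carrier subunits that sit where glycolysis meets the mitochondrion and decide whether pyruvate becomes lactate or acetyl-CoA: Ldha, Ldhb, Pdha1, Pdhb, Dlat, Dld, Pdk1, Pdk2, Mpc1 and Mpc2. They were chosen by their function, with earlier results of these data known, and each was found once by symbol among the 54532 genes of the count table. RNA-Seq was performed on 4 libraries of Zeb1-/- EpCAM+ HSPCs and 4 libraries of Zeb1-/- EpCAM- HSPCs, to ask how the transcriptome of cells that carry the adhesion molecule EpCAM on their surface differs from that of cells without it. Both fractions were sorted as LSK cells (lineage-negative, c-Kit-positive, Sca-1-positive) from the bone marrow of C57BL/6 mice aged 8 to 12 weeks, 14 days after the last pIpC dose, with 4 mice per genotype. Both fractions carry the Zeb1 deletion (Zeb1 fl/fl;Mx1-Cre) and both had pIpC, so no library here comes from a mouse with intact Zeb1. Mx1-Cre is driven by an interferon-inducible promoter that is active in hematopoietic stem cells but also in other cells. The sources do not tie each library to a mouse, and the p-values measure the spread between these libraries.

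Lactate dehydrogenase is a tetramer of LDHA and LDHB subunits in any proportion, and tetramers rich in LDHA are known as the muscle form while those rich in LDHB are known as the heart form. MPC1 and MPC2 form the heteromeric carrier that brings pyruvate across the inner mitochondrial membrane, where the pyruvate dehydrogenase complex (PDC) turns it into acetyl-CoA through E1 (PDHA1 and PDHB), E2 (DLAT) and E3 (DLD). The PDK kinases phosphorylate E1 and switch the complex off, and they are known in quiescent hematopoietic stem cells for limiting the conversion of pyruvate to acetyl-CoA.

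Of the 10 genes, 2 were higher in Zeb1-/- EpCAM+ HSPCs (Ldhb and Pdk2), 6 were lower (Ldha, all 4 PDC genes and Mpc1) and 2 did not pass the test (Pdk1 and Mpc2). Ldhb stood apart with a 3.51-fold higher level, while the 6 lower genes fell by 0.38 to 0.66 on the log2 scale. All 10 passed the filter on low counts. Tests were made with edgeR's quasi-likelihood method across all 13560 genes with enough reads, adjusted by Benjamini-Hochberg and called under 0.05. Among all genes tested, 21.8% were called higher and 20.8% lower, and the median log2 fold change was 0.02 against -0.42 for the 10 genes. For 8 of the 10 genes no library of one fraction fell among those of the other, against 40.1% of all genes tested. Levels are given as CPM (counts scaled to library size, with TMM factors), in the order of replicates 1 to 4, and fold changes are EpCAM+ against EpCAM-.

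**Figure D1:**
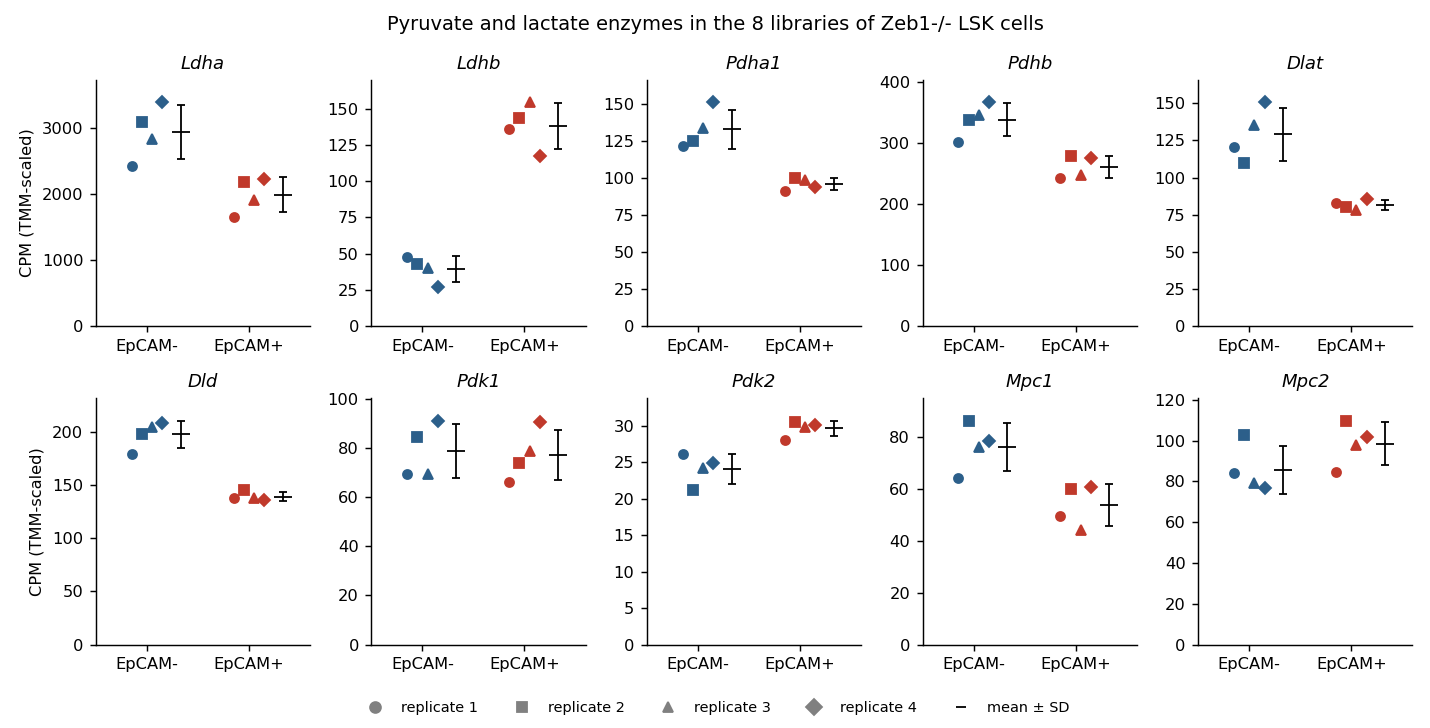
Each panel plots CPM (linear axis from 0) of 1 gene in the 4 EpCAM- libraries (blue) and the 4 EpCAM+ libraries (red), with marker shape for the replicate number and the mean ± SD in black. The fractions are separate in 8 panels, and overlap for Pdk1 and Mpc2.

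**Figure D2:**
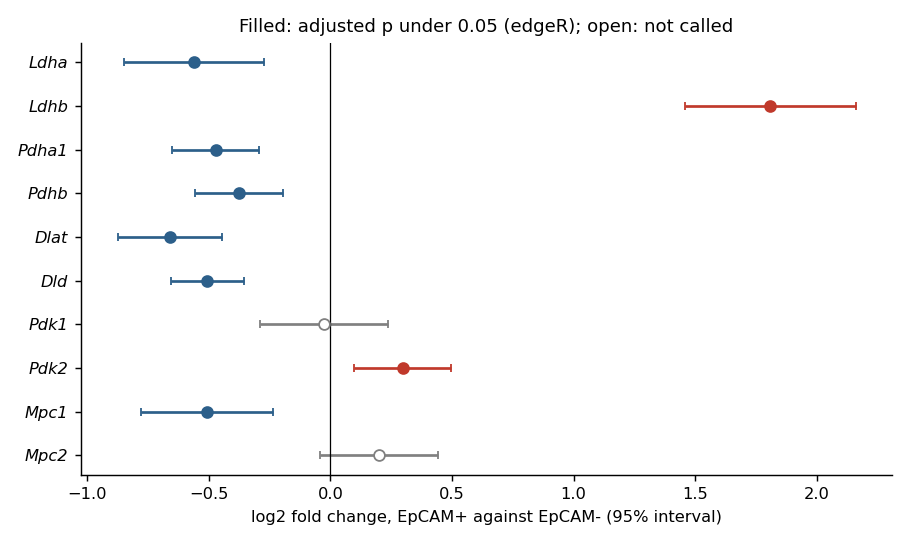
Points give the log2 fold change of each gene (EpCAM+ against EpCAM-) and bars its 95% interval from the edgeR fit, filled where the adjusted p was under 0.05. Ldhb lies at 1.81, the other called genes lie between -0.66 and 0.30, and the intervals of Pdk1 and Mpc2 cross 0.

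The Zeb1-/- EpCAM+ libraries held 15225714 to 17073546 counted reads each and the Zeb1-/- EpCAM- libraries 14114491 to 15929923, so that 3 reads correspond to 0.168 to 0.222 CPM. Epcam itself was 187 ± 32.7 CPM in EpCAM+ and 3.86 ± 3.61 CPM in EpCAM- libraries (SD, n = 4 each). Zeb1 was 19.6 ± 3.75 CPM in EpCAM+ and 11.9 ± 2.14 CPM in EpCAM- libraries, and counts over the whole gene do not separate the deleted allele. Of 10 LSK markers, led in level by Cd34, 8 were higher in EpCAM+ HSPCs and none was lower, with summed levels of 2606 to 2782 CPM against 1441 to 2243. Ly6a and Kit, the genes of the sort markers Sca-1 and c-Kit, were 200.7 ± 106 and 284.6 ± 39.9 CPM in EpCAM+ libraries. In EpCAM- libraries they were 41.3 ± 29.4 and 208.4 ± 38.2 CPM (SD, n = 4 each). Dendritic cell markers (7 of 9 tested higher, led by Cd74) summed to between 789.6 and 11110 CPM in EpCAM+ against 186.9 to 443.5 in EpCAM- libraries, and plasma cell markers (3 of 5 higher, led by Jchain) to between 388.5 and 3975 against 170.9 to 259.1. Neutrophil markers (4 of 8 lower, led by Mpo) summed to between 1043 and 1825 CPM in EpCAM+ against 11910 to 18500, and erythroid markers (5 of 6 lower and 1 higher, led by Car1) to between 92.9 and 272.9 against 2002 to 6837. Epithelial markers (4 of 4 higher, Krt19 at 0) summed to between 202.6 and 253.5 CPM in EpCAM+ against 79.1 to 105.3 in EpCAM- libraries. T cell markers (2 of 3 tested higher, led by Lck) summed to between 54.4 and 66.8 CPM against 17.2 to 30.2. Most of that sum was Lck alone, at 55.4 ± 5.23 CPM in EpCAM+ and 21.9 ± 5.17 in EpCAM- libraries. Cd3e, Cd3d, Cd3g and Cd8a had at most 12 reads in any library and were not tested. The other lists were B cell (2 of 5 higher, Pax5 at 0), mast cell and basophil (3 of 6 lower, with Gata2 highest in level but not called), monocyte and macrophage (1 higher and 2 lower of 5, led in level by Lyz2), natural killer cell (0 of 1, Nkg7) and stroma (none tested, Col1a1 at 0). The part of these cell types in the results below was not tested, and in bulk samples fewer cells of a type and less RNA per cell cannot be told apart.

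The promoters of both lactate dehydrogenase genes are shown because the genes went opposite ways. Each runs from 250 bases before to 50 bases after a transcript start, 5′ to 3′ on the strand of the gene, from RefSeq on GRCm38.p6. Ldha is at chr7:46845554-46845853 (plus strand, 1 of its 2 windows) and Ldhb at chr6:142507908-142508207 (minus strand). Capitals mark ACGTG, the core of the hypoxia response element that HIF-1 binds, or CACCTG, the E-box bound by ZEB1, each on either strand.
Ldha: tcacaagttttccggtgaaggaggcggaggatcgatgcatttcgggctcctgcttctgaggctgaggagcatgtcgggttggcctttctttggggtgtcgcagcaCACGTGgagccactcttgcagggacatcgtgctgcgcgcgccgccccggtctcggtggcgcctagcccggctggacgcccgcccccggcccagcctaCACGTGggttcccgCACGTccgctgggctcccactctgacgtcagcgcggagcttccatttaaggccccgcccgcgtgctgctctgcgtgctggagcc
Ldhb: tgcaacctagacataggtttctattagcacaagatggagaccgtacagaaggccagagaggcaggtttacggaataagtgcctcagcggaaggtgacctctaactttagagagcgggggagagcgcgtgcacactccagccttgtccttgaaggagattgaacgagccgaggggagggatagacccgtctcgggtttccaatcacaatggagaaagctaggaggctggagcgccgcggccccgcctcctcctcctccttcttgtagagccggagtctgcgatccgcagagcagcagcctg

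The Ldha window holds ACGTG at 3 places, which begin 145, 48 and 34 bases before the start, and the first pair are CACGTG palindromes. The Ldhb window holds neither motif. Among the 14 windows of the 10 genes, 3 held ACGTG on either strand (Ldha, Pdhb and Pdk2), against 19.6% of the 32851 promoter windows of that length in the mouse table. CACCTG on either strand was found in 3 of the 14 windows (the second window of Ldha, the second window of Mpc1, and Mpc2), against 20.2% of all windows. The 2 searched motifs do not overlap each other in these windows, and a match is a description of the sequence only.

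Ldha (ENSMUSG00000063229, chromosome 7, 46841475 to 46855627, GRCm38) encodes the subunit that favors lactate formation and was by far the most abundant of the 10 transcripts. It was 1651, 2176, 1916 and 2220 CPM in Zeb1-/- EpCAM+ libraries and 2420, 3096, 2840 and 3392 CPM in Zeb1-/- EpCAM- libraries. Every EpCAM+ library lay below every EpCAM- library, and within each pair of the same replicate number the EpCAM+ library was lower. The means were 1991 ± 263 and 2937 ± 412 CPM (SD, n = 4 each), a log2 fold change of -0.56 (SE 0.13, edgeR adjusted p = 0.00654). In reads, this single gene took 0.166% to 0.229% of an EpCAM+ library and 0.243% to 0.321% of an EpCAM- library. A processed copy of the gene, Ldha-ps2, drew only 91 to 174 reads per library and did not pass the test (log2 fold change -0.40, edgeR adjusted p = 0.0823).

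Ldhb (ENSMUSG00000030246, chromosome 6, 142490249 to 142507957) encodes the subunit that predominates in oxidative tissues such as heart. It was 135.9, 143.7, 154.4 and 117.1 CPM in Zeb1-/- EpCAM+ libraries and 47.6, 42.7, 39.7 and 27.0 CPM in Zeb1-/- EpCAM- libraries. The lowest EpCAM+ library was thus well above the highest EpCAM- library. The means were 138 ± 15.7 and 39.3 ± 8.8 CPM (SD, n = 4 each), a log2 fold change of 1.81 (SE 0.16, edgeR adjusted p = 0.000125), which was larger than that of 96.2% of all genes tested. Leaving out each library in turn gave log2 fold changes of 1.66 to 1.91. In the same EpCAM+ libraries, dendritic cell markers summed to 10750, 789.6, 2850 and 11110 CPM and plasma cell markers to 3975, 453, 673.4 and 388.5 CPM, and the part of these cells in the level of Ldhb was not tested.

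The 3 protein-coding genes whose level followed that of Ldhb most closely over the 8 libraries, out of 11734 searched by the root mean square difference of centered log2 CPM, were Gata3 (0.0972), Rora (0.128) and Pglyrp2 (0.138). Gata3 and Rora encode transcription factors, and Pglyrp2 is a peptidoglycan-cleaving protein. Their log2 fold changes were 1.80, 1.88 and 1.88. The measure is dominated by the difference between the fractions and was used as a description only.

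Because the subunits assemble into 1 enzyme, their transcripts were also compared per kilobase of gene length within each library. On that scale Ldhb made up 14.8%, 12.2%, 14.5% and 10.01% of the Ldha plus Ldhb total in Zeb1-/- EpCAM+ libraries and 3.98%, 2.83%, 2.86% and 1.65% in Zeb1-/- EpCAM- libraries. The fractions did not overlap, with means of 12.9% ± 2.24 and 2.83% ± 0.953 (SD, n = 4 each). Per kilobase, Ldha transcripts outnumbered Ldhb transcripts 6.95 ± 1.501 to 1 in EpCAM+ and 38.0 ± 15.2 to 1 in EpCAM- libraries. In total, Ldha plus Ldhb came to 689 ± 76.6 CPM per kilobase in EpCAM+ and 912 ± 120 in EpCAM- libraries, so that Ldha remained the dominant transcript in all 8 libraries. The difference in Ldhb share had an exact two-sided permutation p of 0.0286, which is the smallest that 4 libraries against 4 allow, and 0.0857 after adjustment over the 9 shares and ratios computed. With 3 of the 9 at that smallest p, none passed the threshold after adjustment. On the authors' FPKM scale, which implies other gene lengths, the share was 7.38% against 1.55%. The ratio of Ldha to Ldhb was then 12.9 ± 2.79 to 1 in EpCAM+ and 70.6 ± 28.2 to 1 in EpCAM- libraries, so its size depends on the gene length used.

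**Figure D3:**
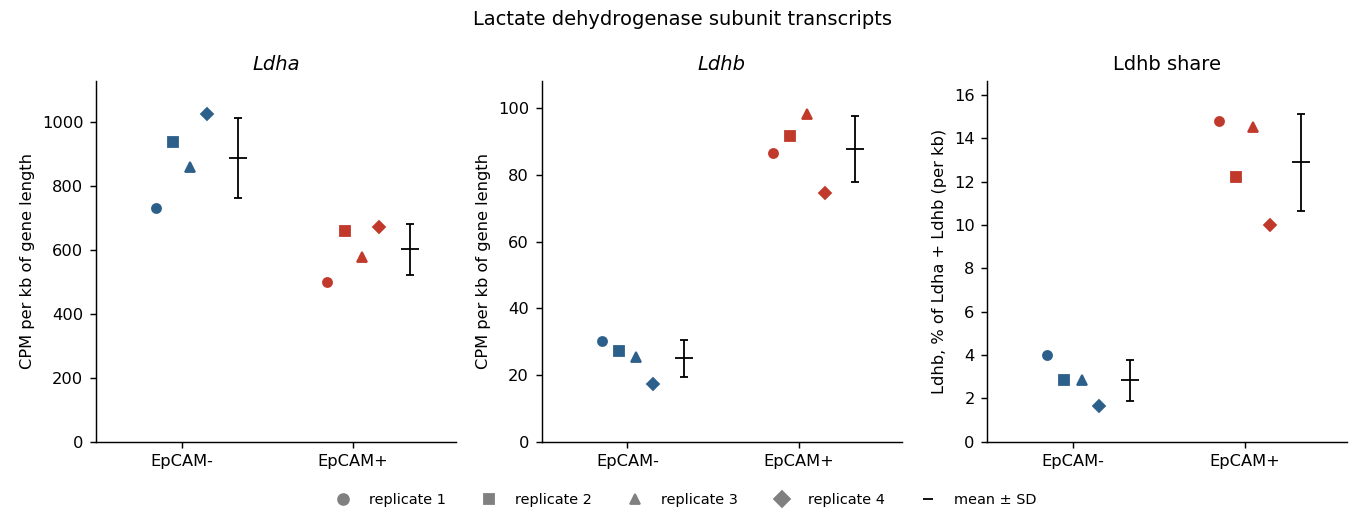
The left and middle panels plot Ldha and Ldhb in CPM per kilobase of gene length (linear axes from 0, of different range) and the right panel the percentage of the Ldha plus Ldhb total that is Ldhb, in the 4 EpCAM- (blue) and 4 EpCAM+ libraries (red), with the mean ± SD in black. Ldha is lower and Ldhb higher in every EpCAM+ library, and the Ldhb share is 10.01% to 14.8% against 1.65% to 3.98%.

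Of the mitochondrial pyruvate carrier subunits, Mpc1 was lower in Zeb1-/- EpCAM+ HSPCs and Mpc2 did not pass the test. Mpc1 (ENSMUSG00000023861, chromosome 17, 8282904 to 8297661) was 49.6, 59.9, 44.2 and 60.9 CPM in Zeb1-/- EpCAM+ libraries and 64.0, 86.3, 76.2 and 78.3 CPM in Zeb1-/- EpCAM- libraries. All EpCAM+ values lay below all EpCAM- values, although the highest EpCAM+ library came close to the lowest EpCAM- library. The log2 fold change was -0.51 (SE 0.12, edgeR adjusted p = 0.00825).

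Mpc1 has a processed pseudogene, Mpc1-ps (chromosome 12, 110858565 to 110858894), which was assigned 592 to 877 reads in EpCAM+ and 852 to 920 reads in EpCAM- libraries, close in number to those of Mpc1. Its log2 fold change was -0.51 (SE 0.10, edgeR adjusted p = 0.00315), and how the counting split reads between gene and copy is uncertain. With the reads of Mpc1-ps added to those of Mpc1, an alternative chosen after the data were seen, the sum was 96.5 ± 12.5 CPM in EpCAM+ and 137 ± 14.9 CPM in EpCAM- libraries (SD, n = 4 each), and the log2 fold change was again -0.51.

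Mpc2 (ENSMUSG00000026568, chromosome 1, 165460637 to 165481214) was 84.5, 109.8, 97.7 and 101.7 CPM in Zeb1-/- EpCAM+ libraries and 84.3, 102.7, 79.1 and 76.6 CPM in Zeb1-/- EpCAM- libraries. The fractions overlapped, and the EpCAM- replicate 2 library lay among the EpCAM+ values. Within pairs of the same replicate number the EpCAM+ library was higher in 4 of 4, by 0.003 to 0.41 on the log2 scale, and the fit with the replicate block gave an edgeR adjusted p of 0.0574. The log2 fold change was 0.20 (95% interval -0.04 to 0.44, edgeR adjusted p = 0.162). Without the EpCAM- replicate 2 library it was 0.29 (edgeR adjusted p = 0.0355).

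The ratio of Mpc1 to Mpc2 per kilobase, on the log2 scale, was 1.05, 0.94, 0.67 and 1.079 in Zeb1-/- EpCAM+ libraries and 1.42, 1.57, 1.76 and 1.85 in Zeb1-/- EpCAM- libraries. The fractions were thus separate by a mean of -0.71 (exact two-sided permutation p = 0.0286, adjusted p = 0.0857 over the 9 measures).

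All 4 genes of the PDC were lower in Zeb1-/- EpCAM+ HSPCs, in every library and in every pair of the same replicate number. For the catalytic E1 alpha subunit, Pdha1 (ENSMUSG00000031299, chromosome X, 160122209 to 160138413), levels were 91.3, 100, 98.7 and 93.7 CPM in EpCAM+ libraries and 121.5, 125, 134 and 151.4 CPM in EpCAM- libraries. The 4 EpCAM+ values were close to each other and all under the lowest EpCAM- value, with a log2 fold change of -0.47 (SE 0.08, edgeR adjusted p = 0.00143). For the E1 beta subunit, Pdhb (ENSMUSG00000021748, chromosome 14, 8165996 to 8173025), levels were 242.5, 278.7, 247.6 and 275.7 CPM against 302.8, 338.4, 346.4 and 367.5 CPM. Here the difference was the smallest of the 4, a log2 fold change of -0.38 (SE 0.08, edgeR adjusted p = 0.00493).

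Dlat (ENSMUSG00000000168, chromosome 9, 50634633 to 50659780), the E2 acetyltransferase that forms the core of the complex, was 82.8, 79.9, 78.1 and 85.9 CPM in Zeb1-/- EpCAM+ libraries and 120.6, 109.9, 135.1 and 150.8 CPM in Zeb1-/- EpCAM- libraries. It had the largest fall among the 10 genes, a log2 fold change of -0.66 (SE 0.10, edgeR adjusted p = 0.000696). Dld (ENSMUSG00000020664, chromosome 12, 31331277 to 31351453) encodes E3, which is shared with other 2-oxoacid dehydrogenases and the glycine cleavage system. It was 138.2, 146, 138.1 and 136 CPM in EpCAM+ libraries and 180, 198.5, 205.4 and 209 CPM in EpCAM- libraries. The EpCAM+ values were almost level with each other, and the log2 fold change was -0.51 (SE 0.07, edgeR adjusted p = 0.00049).

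The proportions among the PDC transcripts were compared per kilobase. The log2 ratio of Pdha1 to Pdhb per kilobase was -1.39 ± 0.098 in EpCAM+ and -1.30 ± 0.068 in EpCAM- libraries (exact two-sided permutation p = 0.2, adjusted p = 0.257). Relative to the mean of the E1 genes, Dlat was lower by a further -0.25 and Dld by a further -0.10 on the log2 scale in EpCAM+ HSPCs, and the libraries overlapped for both (exact two-sided permutation p = 0.0571, adjusted p = 0.103 for each). Ldha plus Ldhb relative to E1 came to a log2 ratio of 3.88 in both fractions, with a range of 3.75 to 3.95 in EpCAM+ and 3.78 to 3.99 in EpCAM- libraries (exact two-sided permutation p = 1). The total of lactate dehydrogenase transcripts and the E1 transcripts were thus both lower in EpCAM+ HSPCs, with no detectable difference in their ratio. Mpc1 plus Mpc2 relative to E1 differed by 0.098 (exact two-sided permutation p = 0.343, adjusted p = 0.386). This value depended on the gene length used, at 0.14 on the FPKM scale and 0.31 with no length correction (exact two-sided permutation, adjusted p = 0.0857).

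The kinases that inhibit E1 were not among the genes that fell. Pdk1 (ENSMUSG00000006494, chromosome 2, 71873224 to 71903858), a HIF-1 target in many cells, was 66.2, 73.8, 78.6 and 90.5 CPM in Zeb1-/- EpCAM+ libraries and 69.6, 84.6, 69.6 and 91.1 CPM in Zeb1-/- EpCAM- libraries. The fractions overlapped throughout, with a log2 fold change of -0.03 (95% interval -0.29 to 0.24, edgeR adjusted p = 0.872), whose sign turned under other scaling.

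Pdk2 (ENSMUSG00000038967, chromosome 11, 95026258 to 95041354), the most widely expressed kinase of the family, was 28.1, 30.6, 29.8 and 30.2 CPM in Zeb1-/- EpCAM+ libraries and 26.1, 21.2, 24.2 and 24.9 CPM in Zeb1-/- EpCAM- libraries. The fractions did not overlap, but the lowest EpCAM+ and the highest EpCAM- library were close, and the log2 fold change was 0.30 (SE 0.09, edgeR adjusted p = 0.0224). The call was lost on leaving out EpCAM+ replicate 2, 3 or 4 or EpCAM- replicate 3, at edgeR adjusted p = 0.0544 to 0.0581.

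Per kilobase, Pdk1 made up 51.3% ± 2.74 of Pdk1 plus Pdk2 in EpCAM+ and 56.9% ± 4.70 in EpCAM- libraries (exact two-sided permutation p = 0.114, adjusted p = 0.171). Set against the mean of the E1 genes, Pdk1 plus Pdk2 was -1.33, -1.37, -1.21 and -1.19 on the log2 scale in Zeb1-/- EpCAM+ libraries and -1.69, -1.79, -1.92 and -1.79 in Zeb1-/- EpCAM- libraries. More Pdk1 plus Pdk2 transcript per E1 transcript was thus present in every EpCAM+ library, by a mean of 0.52 (exact two-sided permutation p = 0.0286, adjusted p = 0.0857). Pdk3, which held most Pdk transcripts (75.7% in EpCAM+ and 77.7% in EpCAM- libraries), is not part of this ratio. In absolute terms Pdk1 plus Pdk2 was 19.3 ± 1.55 CPM per kilobase in EpCAM+ and 17.7 ± 1.30 in EpCAM- libraries, while the mean of the E1 genes was 46.7 ± 2.68 against 61.7 ± 5.14. The fractions overlapped for Pdk1 plus Pdk2 itself (17.4 to 21.2 against 16.6 to 19.6 CPM per kilobase).

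**Figure D4:**
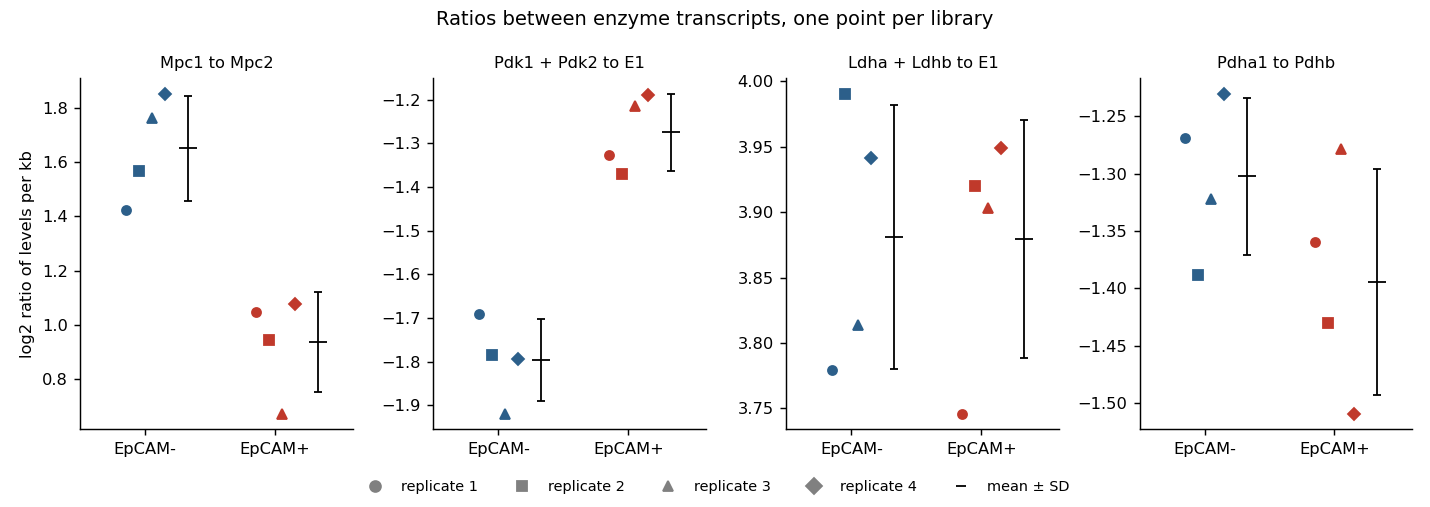
Each panel plots the log2 ratio of levels per kilobase for a pair of genes or gene sums in the 4 EpCAM- (blue) and 4 EpCAM+ libraries (red), with the mean ± SD in black. E1 is the mean of Pdha1 and Pdhb, and the vertical axes do not start at 0 and differ between panels. Mpc1 to Mpc2 and Pdk1 plus Pdk2 to E1 are separate, and Ldha plus Ldhb to E1 and Pdha1 to Pdhb overlap.

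In order of level per kilobase, Ldha came first in both fractions (601 ± 79.5 CPM per kilobase in EpCAM+, 887 ± 125 in EpCAM-). Ldhb ranked 2 in EpCAM+ (87.8 ± 10.01) and 7 in EpCAM- libraries (25 ± 5.61), where Pdhb (87.7 ± 6.98) ranked 2. In EpCAM+ libraries Pdhb (67.6 ± 4.85) followed Ldhb, with no overlap between them, then Dld (37.9 ± 1.19). Pdha1 (25.7 ± 1.1) and Mpc1 (25.8 ± 3.904) could not be told apart in EpCAM+ libraries, nor could Pdk1 (9.93 ± 1.31) and Pdk2 (9.38 ± 0.340), the lowest of the 10. On the FPKM scale Ldhb ranked 3 in EpCAM+ and 8 in EpCAM- libraries. Pdk1 (44.0 ± 5.52 FPKM) and Pdk2 (32.5 ± 1.81 FPKM) did not overlap in EpCAM+ libraries on that scale. The exact rank and the closeness of Pdk1 to Pdk2 thus depend on the gene length used.

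Genes of the surrounding pathway were taken from lists by function. Of 62 listed genes, 55 were tested, 7 were higher and 19 were lower, with a median log2 fold change of -0.20. Among all genes tested, 21.8% were called higher and 20.8% lower. Of 5 genes for monocarboxylate carriers and their chaperones, 3 were lower (1 carrier and both chaperones), and 1 carrier was higher. Slc16a1, which encodes the lactate carrier MCT1, was 55.4, 73.0, 65.8 and 71.9 CPM in Zeb1-/- EpCAM+ libraries and 129.6, 128.5, 187.7 and 205.1 CPM in Zeb1-/- EpCAM- libraries, a log2 fold change of -1.29 (SE 0.16, edgeR adjusted p = 0.000363). The EpCAM+ libraries were all under the EpCAM- libraries. Bsg (-0.52) and Emb (-0.76), the chaperones of these carriers, were lower as well (edgeR adjusted p = 0.00253 and 0.00553), while Slc16a7, which encodes MCT2, was higher at 0.49 (edgeR adjusted p = 0.00803). Slc16a3, which encodes the lactate exporter MCT4, was 5.92 ± 0.738 CPM against 6.34 ± 1.08 and did not pass the test (edgeR adjusted p = 0.678).

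Among other lactate dehydrogenases, Ldhd, whose mitochondrial product acts on D-lactate, was higher (log2 fold change 1.72, SE 0.39, edgeR adjusted p = 0.00576) but low, at 5.27 ± 2.45 against 1.598 ± 0.536 CPM. The testis form Ldhc had 0 to 2 reads in EpCAM+ and 7 to 27 in EpCAM- libraries and was not tested. Of the remaining PDC genes, 1 of 5 tested was lower, near the 20.8% over all genes, and none was higher (21.8% over all genes). That gene was Pdhx, which encodes the protein that anchors E3 to the E2 core, at 45.1, 42.5, 44.5 and 43.6 CPM in EpCAM+ against 56.7, 63.6, 60.5 and 70.8 CPM in EpCAM- libraries (log2 fold change -0.52, SE 0.08, edgeR adjusted p = 0.00096). It thus moved with the other PDC subunits.

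Pdk3, a further kinase of E1, was the most abundant of the kinases per kilobase and held 75.7% ± 1.32 of all Pdk transcripts in EpCAM+ and 77.7% ± 0.783 in EpCAM- libraries. Its own level was 147, 163.1, 156.1 and 156.1 CPM in EpCAM+ against 153.2, 163.1, 152.9 and 164.8 CPM in EpCAM- libraries (log2 fold change -0.03, 95% interval -0.17 to 0.11, edgeR adjusted p = 0.757). The fractions overlapped for this gene. Pdk4, the kinase induced by fasting, had 5 to 18 reads in EpCAM+ and 0 to 1 in EpCAM- libraries and was not tested. All 4 kinases together came to 80.2 ± 3.66 CPM per kilobase in EpCAM+ and 79.6 ± 3.61 in EpCAM- libraries. The phosphatases that reactivate E1 did not pass the test either (Pdp1 0.36, edgeR adjusted p = 0.076, and Pdp2 -0.13, edgeR adjusted p = 0.45).

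Of 6 tested pyruvate-forming enzymes, 3 were lower and none was higher, against 20.8% called lower and 21.8% higher over all genes tested. Pklr, the pyruvate kinase of liver and red cells, was 0.335 ± 0.327 CPM in EpCAM+ and 20.8 ± 9.35 CPM in EpCAM- libraries (log2 fold change -5.93, SE 0.55, edgeR adjusted p = 0.000145), and erythroid markers moved in the same direction, as given above. Me2, the mitochondrial malic enzyme, was lower by -0.66 (edgeR adjusted p = 0.000507). Pkm, which encodes the pyruvate kinase of most other cells, was 1370 ± 106 against 1155 ± 172 CPM and did not pass the test (log2 fold change 0.25, edgeR adjusted p = 0.107).

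Downstream of the complex, Cs, which encodes citrate synthase, was lower by -0.72 (edgeR adjusted p = 8e-04) and Acly by -0.33 (edgeR adjusted p = 0.00736), whereas Pcx, which encodes pyruvate carboxylase, missed the threshold (-0.44, edgeR adjusted p = 0.0937). Of 6 genes needed to put lipoic acid on E2, 3 were lower and none was higher, against 20.8% called lower and 21.8% higher over all genes tested. The 3 lower genes were Lias, which encodes lipoic acid synthase (-0.57, edgeR adjusted p = 0.00382), and the iron-sulfur cluster assembly factors Glrx5 (-1.17, edgeR adjusted p = 0.000179) and Bola3 (-0.50, edgeR adjusted p = 0.0121). The transferases Lipt1 and Lipt2 did not pass the test (edgeR adjusted p = 0.0998 and 0.132). Glrx5 is also used in heme synthesis of erythroid cells. Of 7 genes of the sister 2-oxoacid dehydrogenase complexes, Dlst (-0.64, edgeR adjusted p = 0.000627) and Bckdk (-0.27, edgeR adjusted p = 0.0347) were lower and none was higher. The same shares over all genes, 20.8% lower and 21.8% higher, stand beside these counts.

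Since Ldha and Pdk1 are textbook targets of HIF-1, other targets were examined. Of 20 tested, 5 were higher and 5 were lower, with a median log2 fold change of 0.07. Calls over all genes tested were 21.8% higher and 20.8% lower, so these counts lie near the general rate. Bhlhe40, a transcriptional repressor, was higher (2.78, edgeR adjusted p = 0.00118) but low, at 6.26 ± 0.532 against 0.892 ± 0.692 CPM, with 2 to 29 reads in EpCAM- libraries. Ndrg1 (0.44, edgeR adjusted p = 0.0022) was also among the higher genes, and the glycolytic enzyme Aldoa (-0.38, edgeR adjusted p = 0.00296) was among the lower ones. Hif1a itself was 43.2 ± 3.61 against 35.9 ± 6.61 CPM and did not pass the test (log2 fold change 0.26, edgeR adjusted p = 0.128).

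**Figure D5:**
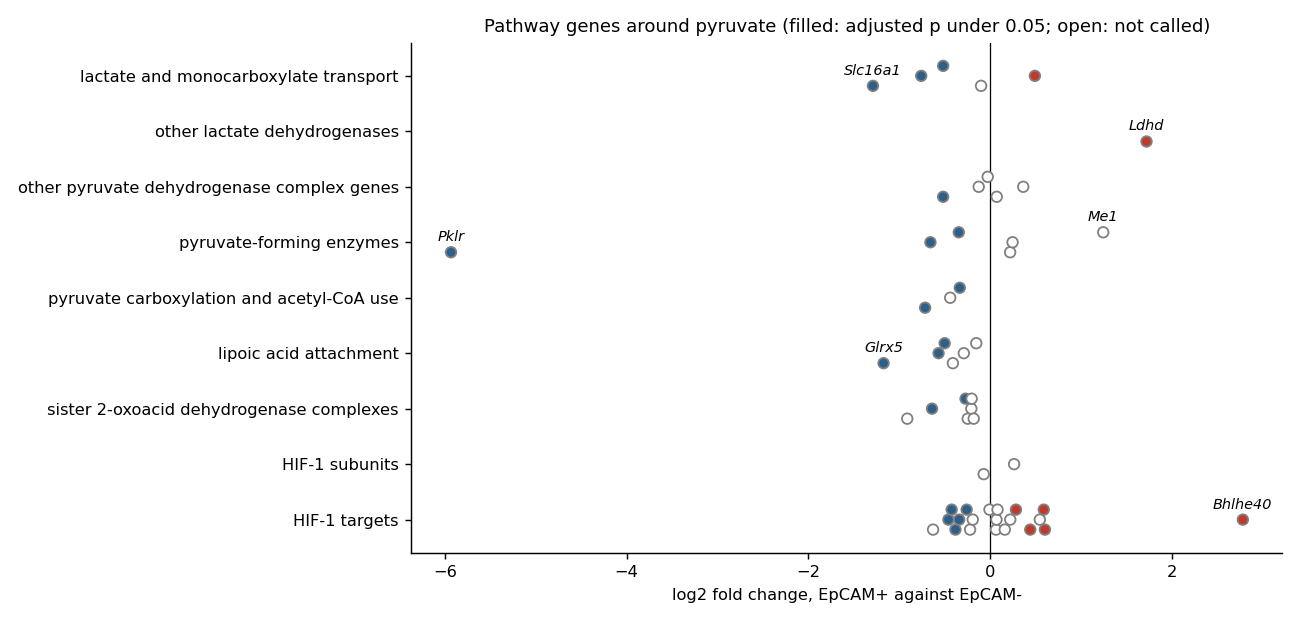
Each point is a tested gene of a pathway list, placed by its log2 fold change (EpCAM+ against EpCAM-) and filled red where higher, blue where lower and open where the edgeR adjusted p was 0.05 or above. Vertical offsets within a list carry no value, and genes beyond 1.1 in either direction are named. In 6 of the 9 lists (the HIF-1 subunits, other PDC genes, pyruvate-forming enzymes, pyruvate carboxylation and acetyl-CoA use, lipoic acid attachment and the sister complexes) no gene was called higher, and the HIF-1 targets hold 5 of each direction. Over all genes tested, 21.8% were called higher and 20.8% lower.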

How the data were processed

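RNA-Seq libraries were made with SMART-Seq v4 from 4 samples of Zeb1-/- EpCAM+ and 4 of Zeb1-/- EpCAM- LSK cells. Per the labels, the authors aligned reads to GRCm38.p6 with STAR 2.6.1d, counted reads per gene with featureCounts 1.5.0-p3 and used DESeq2 1.20.0, as the submitters' processing notes name them. The annotation release, strandedness and treatment of multi-mapped reads are not given in the sources used here. The deposited counts are raw whole reads per gene, 1 column per library. The deposited FPKM values imply other gene lengths than the deposited length column (median ratio 2.53), and served as an alternative. Columns of the authors' own comparisons (fold changes and p-values, between fractions and between same-numbered libraries) were not used.

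Genes were kept with edgeR 4.0.16 filterByExpr (R 4.3.3), scaled by TMM and tested with its two-sided quasi-likelihood test, adjusted by Benjamini-Hochberg over 13560 genes. SEs came from the F statistic. Shares and ratios used CPM per kilobase of the length column and exact two-sided permutation tests. Alternatives were DESeq2 1.42.0, limma 3.58.1 (trend, prior count 2), other scaling, other filters (at least 1 count in any or 10 counts in every library), the replicate number as a block and each library left out. Plots used matplotlib 3.10.9 in Python 3.11.15. The scripts were tested on simulated data.

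The sources do not say whether libraries of the same replicate number share a mouse, and the main tests did not pair them. Same-numbered libraries deviated together from their fraction means (correlation across genes 0.205 to 0.356 in 4 pairs), against -0.216 to 0.04 in 12 pairs with different numbers. No 2 libraries of a fraction were duplicates (chi-square per degree of freedom 9.8 to 91.7 in 12 pairs). Reads carry no molecular identifiers, so that counts and the floor of 3 counts cover counting error only.

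The 10 genes, the pathway and marker lists and the tests were chosen with earlier results of these data known. Genes named are the 10, up to 3 called genes per pathway list by adjusted p, a set of regulators named whatever their result, Epcam, Zeb1, the 3 genes most like Ldhb, and per marker list the gene with the highest level or at 0. Ldhc, Slc16a7, Lipt1, Lipt2, Ly6a, Kit, Cd3e, Cd3d, Cd3g, Cd8a and the pseudogenes fall outside this rule and were named after their values were seen. 1 marker list is not reported here. Ero1a was not matched by symbol. Aldoa has 2 rows, and the row with more reads was used. Promoters came from RefSeq and matched all 10 genes.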

Additional observations from a re-analysis of the deposited data

Results flagged for a closer look

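In a check of 38 groups of 4 libraries for 1 library far from the other 3, 2 values stood out, about as many as chance alone flags. The log2 ratio of Dlat to E1 was -1.43 in the EpCAM- replicate 2 library and -1.18 to -1.14 in the other 3 EpCAM- libraries. The log2 ratio of Dld to E1 was -0.259 in the EpCAM- replicate 4 library and -0.183 to -0.168 in the other 3 EpCAM- libraries.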

How the results depend on the processing

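Ldha, Ldhb, Pdha1, Pdhb, Dlat, Dld and Mpc1 kept their direction and their call under every alternative run. Pdk1, which was not called, turned to 0.06 with upper-quartile scaling and 0.059 with library totals, and ranged from -0.12 to 0.045 with single libraries left out. The number of the 10 genes called higher was 1 with the filter of 1 count in any library, since Pdk2 then had an edgeR adjusted p of 0.0685, and ranged from 1 to 3 with single libraries left out. With the replicate block, which pairs libraries of the same number, the 10 genes kept their calls (Ldhb 1.83, Mpc2 edgeR adjusted p = 0.0574) and 11 pathway genes were called higher in place of 7. That number ranged from 4 to 9 with single libraries left out, and was 4 without EpCAM- replicate 3. For the shares and ratios, an exact test that swaps the fractions within the 4 pairs was the paired alternative. It gave an adjusted p of 0.188 for the Ldhb share, Mpc1 to Mpc2, and Pdk1 plus Pdk2 to E1. With 4 pairs that test cannot reach the threshold of 0.05. The difference in log2 ratio of Ldha plus Ldhb to E1, which was -0.0015, ranged from -0.0356 to 0.043 with single libraries left out. Over all genes, TMM gave 2961 higher and 2818 lower calls, upper-quartile scaling 3642 and 2083 (median log2 fold change 0.107) and library totals 3476 and 2066 (0.105). The cause of these shifts was not tested. No library came from control mice, so an effect of the Zeb1 deletion on these genes was not measured, and transcript levels do not measure enzyme amount, phosphorylation or flux.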

Other observations

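Among the 4 EpCAM- libraries, replicate 1 lay nearest the EpCAM+ mean for 7 of the 8 called genes (all but Dlat, for which replicate 2 was nearest). That library also had the most Epcam reads of its fraction, 144 against 17 to 51 in the other 3. Its Ldhb level was 47.6 CPM and its Ldha level 2420 CPM. At the other end, replicate 4 lay farthest from the EpCAM+ mean for Ldha, Ldhb and all 4 PDC genes, and had the fewest Epcam reads (17). Marker sums did not all follow this order. The dendritic cell and epithelial sums were highest in replicate 1 (443.5 and 105.3 CPM) and higher still in EpCAM+ libraries. The erythroid sum was highest in replicate 4 (6837 CPM against 2002 in replicate 1) and lower in EpCAM+ libraries. The LSK, T cell (mostly Lck), plasma cell, and monocyte and macrophage sums were lowest in replicate 4 (1441, 17.2, 170.9 and 341.3 CPM). All of these sums were higher in EpCAM+ libraries. The B cell sum was also lowest in replicate 4 (49.8 CPM), but the fractions overlapped for it. The neutrophil sum went the other way: it was lowest in replicate 4 (11910 CPM against 18500 in replicate 1) and lower still in EpCAM+ libraries. These orders were noticed after the values were seen, over 4 libraries, and were not tested.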
